A study of Rattus norvegicus with 9 samples.

Results

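The transcripts described here are 51 annotated rat transcripts that were lower after cerebral ischemia-reperfusion and whose level in rats given dexmedetomidine (DEX) lay between those of the Sham and the ischemic rats. They were chosen by their counts in all 9 libraries, from 40808 rows with a rat Ensembl transcript identifier in a table of 44059 transcripts. A row was kept when every library held at least 10 counts, when every Sham library lay above every I/R + DEX library and every I/R + DEX library above every I/R library in CPM, counts scaled to a common library total, and when mean Sham CPM was at least 2 times and mean I/R + DEX CPM at least 1.3 times mean I/R CPM. The 10 rows with the largest count sums were left out, and 0 of them met the other conditions. Because these values of all 3 groups chose the members, their levels and the calls from fits across the whole table are a description, and nothing is supported by a test of these groups.

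RNA came from the cerebral cortex at the infarct site of male Sprague-Dawley rats aged 7 to 8 weeks, with 3 rats in each group. In the Sham group the neck vessels were exposed and separated, no wire was passed into the artery, and saline was injected. In the I/R group saline was injected 30 min before a wire closed the right middle cerebral artery for 2 h, after which the wire was drawn out and blood returned (transient middle cerebral artery occlusion, tMCAO). In the I/R + DEX group, by the study's methods, the same operation followed an intraperitoneal dose of 50 μg/kg DEX, and the study's text is not uniform on whether DEX was also given after reperfusion. Tissue was taken 24 h after tMCAO in every group. No group of DEX without ischemia was analysed here, the study left out rats with no neurological deficit, with early death or with subarachnoid bleeding, and each library is 1 rat.

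Occlusion of the middle cerebral artery starves a core of cortex of oxygen and glucose, and neurons there die within hours while glia react and blood leukocytes enter. Transcripts of neurons therefore commonly fall in ischemic tissue, and tissue at the border of the core keeps more of them. DEX is a sedative that activates α2-adrenergic receptors, which lower noradrenaline release, and it is studied as a protective agent given before or after ischemia. In whole tissue such as this, fewer cells of a type and less RNA per cell cannot be told apart.

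The files give transcript identifiers and no gene names, and 0 of the 40808 identifiers were matched to a symbol in the reference used here, so what the members encode, and whether markers of neurons, glia or leukocytes move with them, was not examined. Members other than 4 given by identifier are called by their rank in mean Sham CPM, from 1 to 51. CPM is not corrected for transcript length, so this rank orders counts and not molecules.

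Libraries held 21691473 to 28600541 counts in the Sham group, 32479042 to 35092422 in the I/R group and 31234956 to 36039743 in the I/R + DEX group. One library stood apart. The 10 largest rows took 22.2% of the counts of I/R + DEX replicate 3, against 7.67% and 13.7% in replicates 1 and 2, 11.0% to 17.6% in the I/R libraries and 6.23% to 6.42% in the Sham libraries. A larger share for these rows leaves a smaller CPM for all others, and the scaling factor of I/R + DEX replicate 3 by the TMM method (a trimmed mean of ratios between libraries) was 0.868, the lowest of the 9. Some results are therefore also given by other scalings, and the number of members and their median position also without this library.

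By library totals, a small part of the transcripts lowered by ischemia was in between after DEX. Of the 40808 annotated transcripts, 18574 had at least 10 counts in every library, and every Sham library lay above every I/R library in 27.7% of these. For 1926 of them, outside the 10 largest rows, mean Sham CPM was also at least 2 times mean I/R CPM, and these are called the lowered transcripts here. Every I/R + DEX library lay above every I/R library in 98 of the 1926 (5.09%), against 1.59% of all 18574. The lowered transcripts were chosen for low values in the same I/R libraries, which alone favours a higher share. Nothing is therefore read from this difference. With TMM scaling every I/R + DEX library lay above every I/R library in 217 of 1949 lowered transcripts (11.1%). The share over all transcripts was not computed with this scaling, so 11.1% cannot be set against 1.59%. By library totals, every I/R + DEX library lay below every I/R library in 12 of the 1926 (0.623%). With TMM this was so in 6, and the share over all transcripts was not computed for either scaling. In the remaining 1816 of the 1926 the libraries of these groups overlapped. Of the 98, 36 reached into the range of the Sham libraries and 62 lay below all of them, where every Sham library lay above every I/R + DEX library in 24.4% of the 18574. Among the 62, 11 had a mean in I/R + DEX under 1.3 times that in I/R, which left the 51 members, 2.65% of the lowered transcripts.

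The thresholds cut through a continuous range. The member nearest to the limit of 2 had a ratio of Sham to I/R of 2.04, and the nearest transcript outside it had 1.97, with 11 transcripts outside that met all other conditions. The member nearest to the limit of 1.3 had a ratio of I/R + DEX to I/R of 1.33, and the nearest of 11 transcripts outside had 1.27. The lowest count of any member in any library was 11, and 42 transcripts that met all other conditions had a lowest count of 8 or less.

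**Figure D1:**
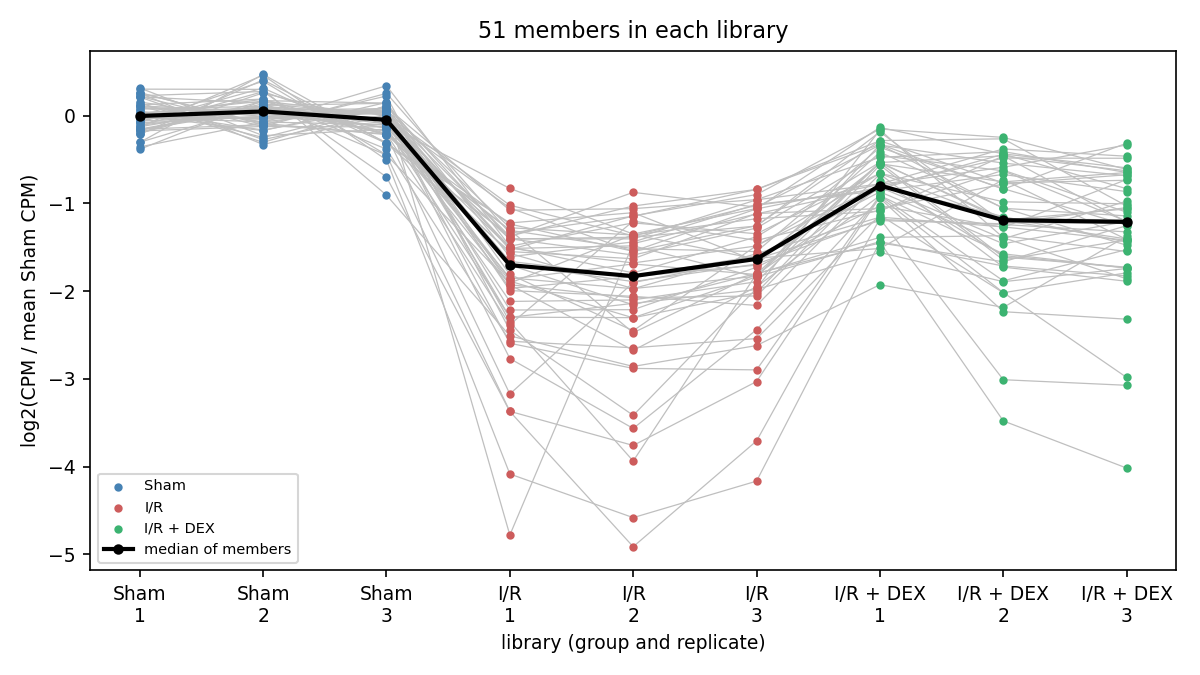
The log2 ratio of CPM to mean Sham CPM (vertical axis) of the 51 members is shown in each of the 9 libraries (horizontal axis), with points coloured by group, thin lines joining the values of 1 transcript and a black line at the median. Every member is lowest in the I/R libraries and in between in the I/R + DEX libraries, as the choice requires, and the I/R + DEX medians lie closest to Sham in replicate 1.

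The members spanned a wide range of counts. Mean Sham CPM ran from 1.00 to 946 with a median of 24.6, mean I/R CPM from 0.376 to 392 with a median of 7.13, and mean I/R + DEX CPM from 0.563 to 677 with a median of 11.6. Under Sham, 1 member lay below 1 CPM, 15 from 1 to 10, 28 from 10 to 100 and 7 above 100. The median ratio of Sham to I/R was 3.43 (range 2.04 to 19.2), and 18 of the 51 members were at least 4 times higher in Sham. The median ratio of I/R + DEX to I/R was 1.64 (range 1.33 to 3.32), and 10 members reached a ratio of 2. Compared with Sham, the I/R + DEX level was lower by a median factor of 1.93 (range 1.25 to 5.77). At the median, the ratio left between Sham and I/R + DEX was thus larger than that between I/R + DEX and I/R.

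The position of the I/R + DEX mean between the I/R mean (0%) and the Sham mean (100%) was 29.5% at the median, with a range of 9.69% to 63.8%. It was under 25% in 18 members, from 25% to 50% in 29 and from 50% to 75% in 4, and no member reached 75%. The 18 members at least 4 times higher in Sham than in I/R had a median position of 21.8%, and the other 33 had 34.2%. These positions follow in part from the ratio limits of the choice, and no test was made between them.

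By the rule for names, 2 identifiers are given for the largest ratio of Sham to I/R and 2 for the largest ratio of I/R + DEX to I/R. The first pair also held the top ranks of the second list, so the next in rank are given there. ENSRNOT00000073276 had 7.09, 10.6 and 5.45 CPM in Sham replicates 1 to 3, 0.456, 0.323 and 0.431 CPM in I/R, and 2.85, 0.694 and 0.478 CPM in I/R + DEX. Its Sham mean of 7.73 ± 2.66 (SD, n = 3) was 19.2 times the I/R mean of 0.403 ± 0.0707 (SD, n = 3), the largest ratio of the 51. I/R + DEX replicate 1 stood well above the I/R libraries, while replicate 3 rested on 16 counts against 16, 11 and 14 counts in the I/R libraries. Its I/R + DEX mean of 1.34 ± 1.31 CPM (SD, n = 3) therefore came mostly from 1 library, and its position was 33.4%, 3.96% and 1.02% in I/R + DEX replicates 1 to 3.

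ENSRNOT00000045944 had 25.9, 26.8 and 13.6 CPM in Sham replicates 1 to 3, 2.14, 0.734 and 1.69 CPM in I/R, and 9.80, 2.75 and 2.63 CPM in I/R + DEX. The Sham mean was 22.1 ± 7.35, the I/R mean 1.52 ± 0.717 and the I/R + DEX mean 5.06 ± 4.10 CPM (SD, n = 3 each), so that Sham was 14.5 times and I/R + DEX 3.32 times I/R. Again I/R + DEX replicate 1 was the high library, at 40.2% of the gap, and replicates 2 and 3 were at 5.95% and 5.38%.

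ENSRNOT00000005076 had 85.8, 81.7 and 54.2 CPM in Sham replicates 1 to 3, 7.15, 5.46 and 9.05 CPM in I/R, and 38.9, 18.3 and 9.35 CPM in I/R + DEX. The I/R + DEX libraries differed 4-fold among themselves, more than the Sham libraries, and replicate 3 lay just above I/R replicate 3, with 313 counts against 294. Its means were 73.9 ± 17.2 in Sham, 7.22 ± 1.80 in I/R and 22.2 ± 15.2 CPM in I/R + DEX (SD, n = 3 each), a ratio of 10.2 for Sham to I/R and 3.07 for I/R + DEX to I/R.

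ENSRNOT00000079630 had 15.5, 16.0 and 20.1 CPM in Sham replicates 1 to 3, 3.16, 1.62 and 4.40 CPM in I/R, and 15.4, 6.58 and 4.75 CPM in I/R + DEX. I/R + DEX replicate 1 almost reached the lowest Sham library, at 87.1% of the gap, the highest position of any member in any I/R + DEX library, and replicate 3 stood at 11.9%. The means were 17.2 ± 2.54 in Sham, 3.06 ± 1.40 in I/R and 8.91 ± 5.70 CPM in I/R + DEX (SD, n = 3 each), and I/R + DEX was 2.91 times I/R. In each of these 4 transcripts I/R + DEX replicate 1 was the highest and replicate 3 the lowest of the I/R + DEX libraries. Without replicate 1, the log2 ratio of mean I/R + DEX to mean I/R CPM went from 1.73 to 0.54 in ENSRNOT00000073276, from 1.73 to 0.82 in ENSRNOT00000045944, from 1.62 to 0.94 in ENSRNOT00000005076 and from 1.54 to 0.89 in ENSRNOT00000079630.

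**Figure D2:**
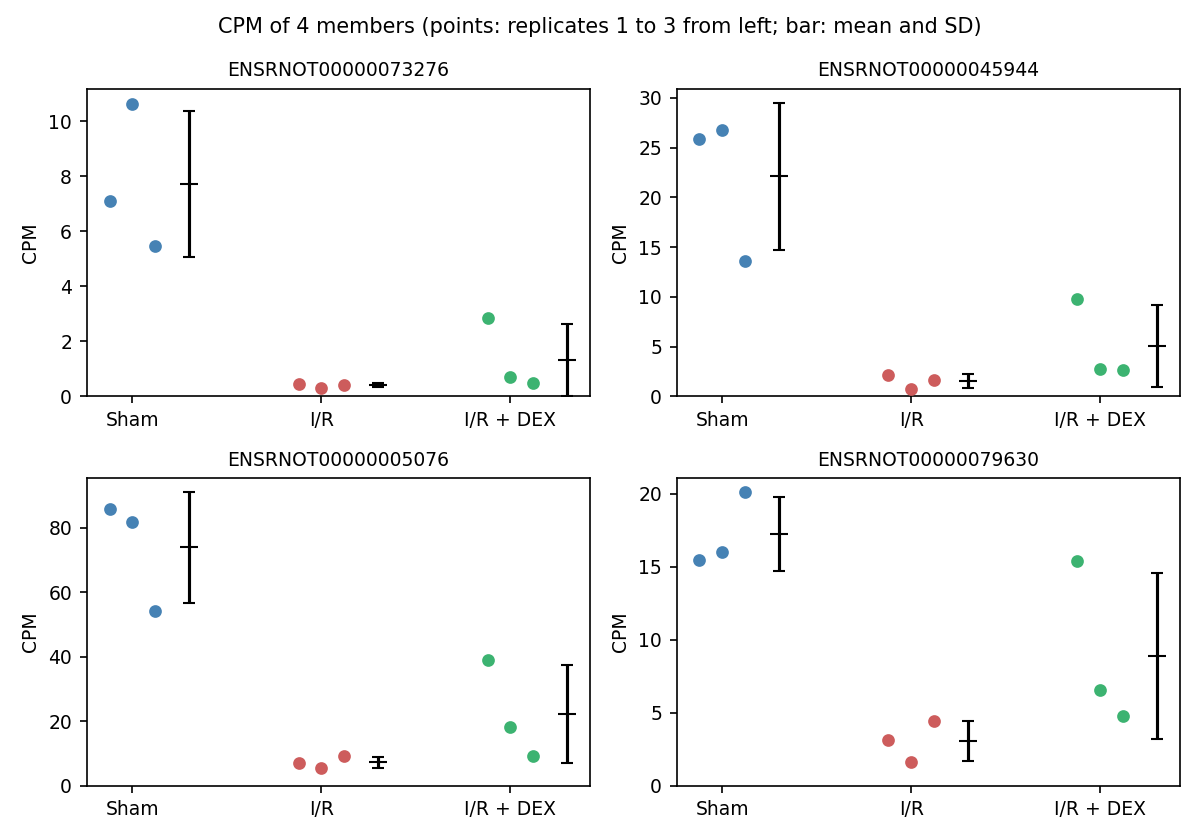
CPM (vertical axis, from 0) of the 4 transcripts given by identifier is shown for the 3 libraries of each group as points, with the mean and SD (n = 3) beside them. In all 4 the highest I/R + DEX library is replicate 1, the leftmost green point, and the lowest is replicate 3, which lies near the I/R libraries.

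Among the members with the highest counts, the I/R + DEX libraries ranked in different ways. Members called by rank were picked for description after their values were seen. The member of rank 1, with 28.5% of the summed Sham CPM of all members, had 951, 959 and 927 CPM in Sham replicates 1 to 3, 456, 324 and 397 CPM in I/R, and 778, 788 and 464 CPM in I/R + DEX. I/R + DEX replicates 1 and 2 lay at 69.6% and 71.5% of the gap, and replicate 3 at 12.9%, only 1.02 times the highest I/R library. The member of rank 2 showed another order, with 482, 499.8 and 526 CPM in Sham, 208, 196 and 223 CPM in I/R, and 237, 366 and 325 CPM in I/R + DEX, where replicate 1 was the lowest. The member of rank 3 had 195, 204 and 138 CPM in Sham, 30.1, 28.6 and 30.8 CPM in I/R, and 81.7, 44.2 and 51.8 CPM in I/R + DEX. Its I/R libraries were tightly grouped, and all 3 I/R + DEX libraries were at least 1.44 times the highest of them.

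A few members were even across the I/R + DEX libraries. In 7 members the highest and lowest I/R + DEX libraries were within 1.25-fold of each other, and in 10 they were more than 2-fold apart (median 1.55-fold, highest 5.96-fold). The member of rank 7 had 46.9, 45.1 and 42.5 CPM in I/R + DEX, against 32.9, 28.7 and 33.0 CPM in I/R and 124, 97.8 and 97.5 CPM in Sham. The member of rank 23 had 20.0, 20.9 and 17.7 CPM in I/R + DEX, against 13.2, 13.3 and 14.3 CPM in I/R and 28.8, 24.8 and 29.7 CPM in Sham. The I/R + DEX libraries of both lay within a narrow band between the other groups. The widest clear space was in the member of rank 38, whose lowest I/R + DEX library was 1.64 times its highest I/R library, with 4.03, 2.05 and 2.63 CPM in I/R + DEX and 1.25, 1.03 and 1.02 CPM in I/R. The highest position was that of the member of rank 44, at 63.8%, with 3.73, 4.20 and 4.13 CPM in Sham, 1.40, 1.82 and 2.16 CPM in I/R and 3.62, 3.39 and 2.63 CPM in I/R + DEX. The lowest position was that of the member of rank 35, at 9.69%, with 3.43, 2.72 and 3.02 CPM in I/R + DEX, close to 2.05, 2.29 and 2.56 CPM in I/R and well below the Sham libraries, the lowest of which was 2.88 times the highest I/R + DEX library.

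For most members the space between I/R + DEX and I/R was narrow. The lowest I/R + DEX library was a median of 1.12 times the highest I/R library (range 1.001 to 1.64), and under 1.1 times in 22 of the 51. The lowest Sham library was a median of 1.33 times the highest I/R + DEX library (range 1.001 to 2.88). In 10 members the exact 95% Poisson intervals of the counts in the lowest I/R + DEX and the highest I/R library did not overlap, and in 33 members those of the lowest Sham and the highest I/R + DEX library did not. These 10 had Sham ranks of 23 or better. The intervals cover counting error only and leave out the variation between rats. Reads of amplified libraries are also not independent molecules, so the intervals may be too narrow even for counting error. The rule asked for separate libraries, and the intervals were not computed for other transcripts. The 10 and the 33 therefore have no baseline, and nothing is read from them. The lowest count of a member was under 50 in 15 members and at least 500 in 14.

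Over the 51 members, I/R + DEX replicate 1 was most often the highest library of its group. Replicate 1 was the highest of the 3 in 33 members, replicate 2 in 11 and replicate 3 in 7, while replicate 3 was the lowest in 30. In 16 members replicate 1 was at least 1.5 times both others, which held for replicate 2 in 1 member and for replicate 3 in 0. The median position was 41.5% in replicate 1, 21.5% in replicate 2 and 18.5% in replicate 3, and in 9 members all 3 replicates reached 25%. In the I/R group, replicate 3 was the highest in 29 members and replicate 2 the lowest in 28. The share of counts in the 10 largest rows was lowest in replicate 1 of the I/R + DEX group and highest in replicate 3. In the I/R group it was 11.0% in replicate 1, 11.9% in replicate 3 and highest in replicate 2, at 17.6%. The part of that share in the order of the libraries was not tested.

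The same order of libraries ran through the lowered transcripts as a whole. Replicate 1 was the highest I/R + DEX library in 77.4% of the 1926 and replicate 3 the lowest in 75.7%, and I/R replicate 3 was the highest I/R library in 71.2%. Over the 1875 lowered transcripts that are not members, the median position was 37.3% in I/R + DEX replicate 1, 11.2% in replicate 2 and -10.3% in replicate 3, below the I/R mean. The members were thus near the others in replicate 1 and above them in replicate 3, where the rule asked for it. With TMM scaling the medians of the members were 39.6%, 25.8% and 30.3% in replicates 1 to 3, and those of the others 35.0%, 16.0% and -1.94%. Since the rule placed the members between the groups, this difference from the other lowered transcripts has no test. Members also varied less within the I/R + DEX group, with a median coefficient of variation of 21.4% against 41.2% in the others, and within the I/R group, with 16.5% against 28.5%, as non-overlapping groups favour, whereas in the Sham group it was 13.2% against 9.74%.

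**Figure D3:**
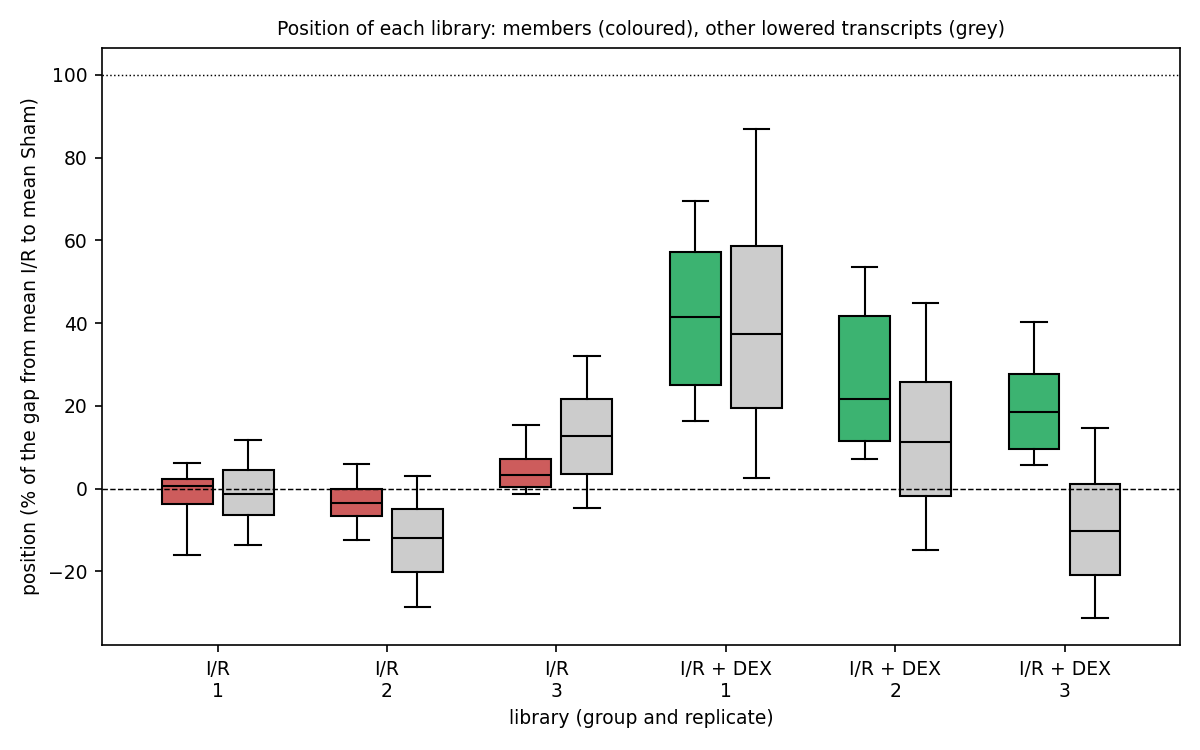
The position of each I/R and I/R + DEX library on the gap from mean I/R (0%, dashed) to mean Sham CPM (100%, dotted) is shown for the 51 members in colour and the other 1875 lowered transcripts in grey, as boxes of the quartiles with whiskers at the 10th and 90th percentiles. The medians of members and others are 41.5% and 37.3% in I/R + DEX replicate 1 and lie on opposite sides of the I/R mean in replicate 3 (18.5% and -10.3%).

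The members had a median Sham level close to that of the other lowered transcripts, 24.6 against 30.9 CPM, and a larger median ratio of Sham to I/R, 3.43 against 2.60. A larger gap leaves more room for an in-between group that is at least 1.3 times I/R, so this was not compared further. Some lowered transcripts outside the set had higher mean ratios of I/R + DEX to I/R than any member.

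**Figure D4:**
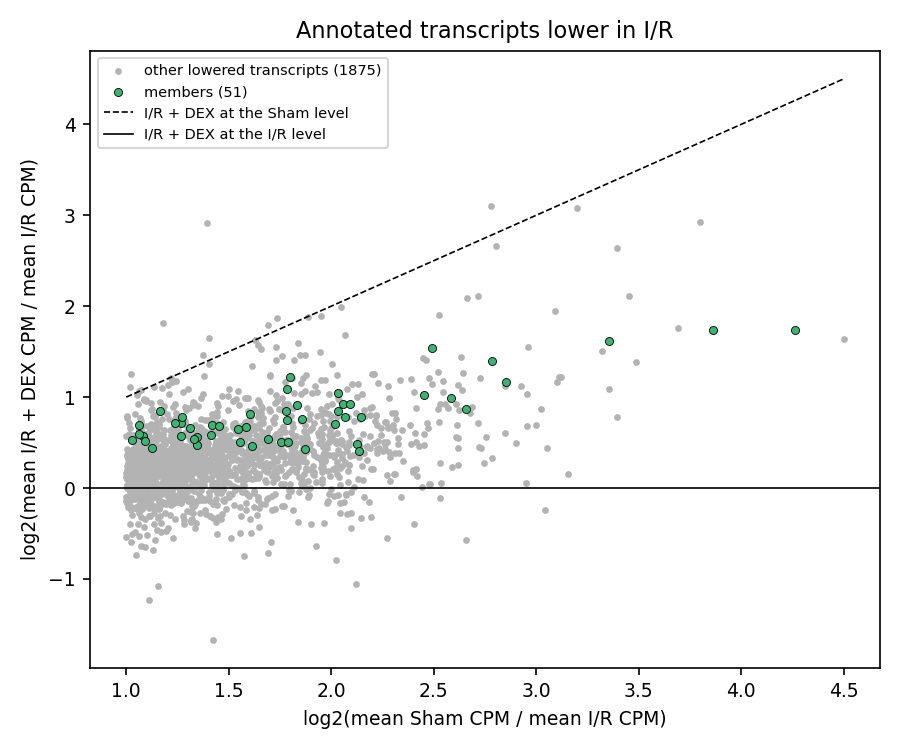
Each point is 1 of the 1926 lowered transcripts, with the log2 ratio of mean Sham to mean I/R CPM on the horizontal axis and the log2 ratio of mean I/R + DEX to mean I/R CPM on the vertical axis; members are green, the solid line marks the I/R level and the dashed line the Sham level. The 51 members lie between the lines at 0.41 to 1.73 on the vertical axis, inside the range of the grey points.

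Among transcripts with 10 counts in every library, the full order of Sham above I/R + DEX above I/R, without limits on the ratios, was met by 94 transcripts. The order of Sham above I/R above I/R + DEX was met by 105, about as many. On the other side of the injury response, the order of I/R above I/R + DEX above Sham was met by 555 transcripts. The order of I/R + DEX above I/R above Sham was met by 20. With the ratio limits mirrored, 216 transcripts raised by ischemia were in between after DEX, against the 51 lowered ones.

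These numbers depended on the scaling. With TMM in place of the library total, 291 transcripts had the order Sham above I/R + DEX above I/R and 50 had Sham above I/R above I/R + DEX. On the raised side, 239 had I/R above I/R + DEX above Sham and 76 had I/R + DEX above I/R above Sham. By the full rule 127 lowered and 90 raised transcripts were then in between, so that lowered ones made up 58.5% of both sets, against 19.1% by library totals. With the 10 largest rows removed from the totals the numbers were 67 and 183, and lowered ones made up 26.8%. Of the 51 members, 47 met the rule with TMM, 49 with the size factors of DESeq2, 46 with totals of annotated transcripts and 38 with the 10 largest rows removed. Under all 5 scalings 34 of the 51 met it. Which set was the larger, the lowered or the raised, therefore depended on the scaling.

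Transcripts chosen with 1 library set aside give a value that the choice did not use. The libraries that this value is set against did take part in the choice. For a left-out I/R + DEX library, the other 2 were asked to lie above every I/R library, which was not asked of the lowered transcripts. That alone favours a higher share among the chosen transcripts, so nothing is read from a higher share. Without I/R + DEX replicate 3, the rule took 472 transcripts, and in 54 of them (11.4%) replicate 3 lay above every I/R library. That share was 12.7% among all transcripts lowered by the same libraries and 13.2% among all transcripts with the minimum count. Transcripts that were in between in the other 2 rats thus had replicate 3 above the I/R libraries no more often than lowered transcripts at large. Without replicate 2, 104 transcripts were chosen and 56 (53.8%) had replicate 2 above every I/R library, against 41.0% of the lowered transcripts. Without replicate 1, 82 were chosen and 59 (72.0%) had replicate 1 above every I/R library, against 77.3% of the lowered transcripts. The left-out library lay between the groups, also below the Sham libraries, in 42 of the 82 for replicate 1. This was so in 53 of the 104 for replicate 2 and in 52 of the 472 for replicate 3. The share in between was not computed for the lowered transcripts, so nothing is read from these counts.

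The I/R libraries were set aside in the same way. Without I/R replicate 3, 310 transcripts were chosen, and replicate 3 lay below every I/R + DEX library in 58 (18.7%), against 9.07% of the lowered transcripts. For I/R replicates 1 and 2 the shares were 62.2% of 82 and 73.9% of 69 transcripts, against 21.5% and 44.1%. The chosen transcripts already had every I/R + DEX library above the other I/R libraries, which was not asked of the lowered transcripts. Higher shares for the I/R libraries are therefore built in part into the choice, and nothing is read from them. For each Sham library, between 86.2% and 88.1% of the 56 to 59 transcripts chosen without it had it above every I/R + DEX library, and among the lowered transcripts the share was 84.6% to 88.1%. With TMM scaling, 132 of 642 transcripts (20.6%) chosen without I/R + DEX replicate 3 had that library above every I/R library, against 23.98% of the lowered ones and 30.3% of all with the minimum count. The transcripts share their libraries, so these shares are a description with no test.

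**Figure D5:**
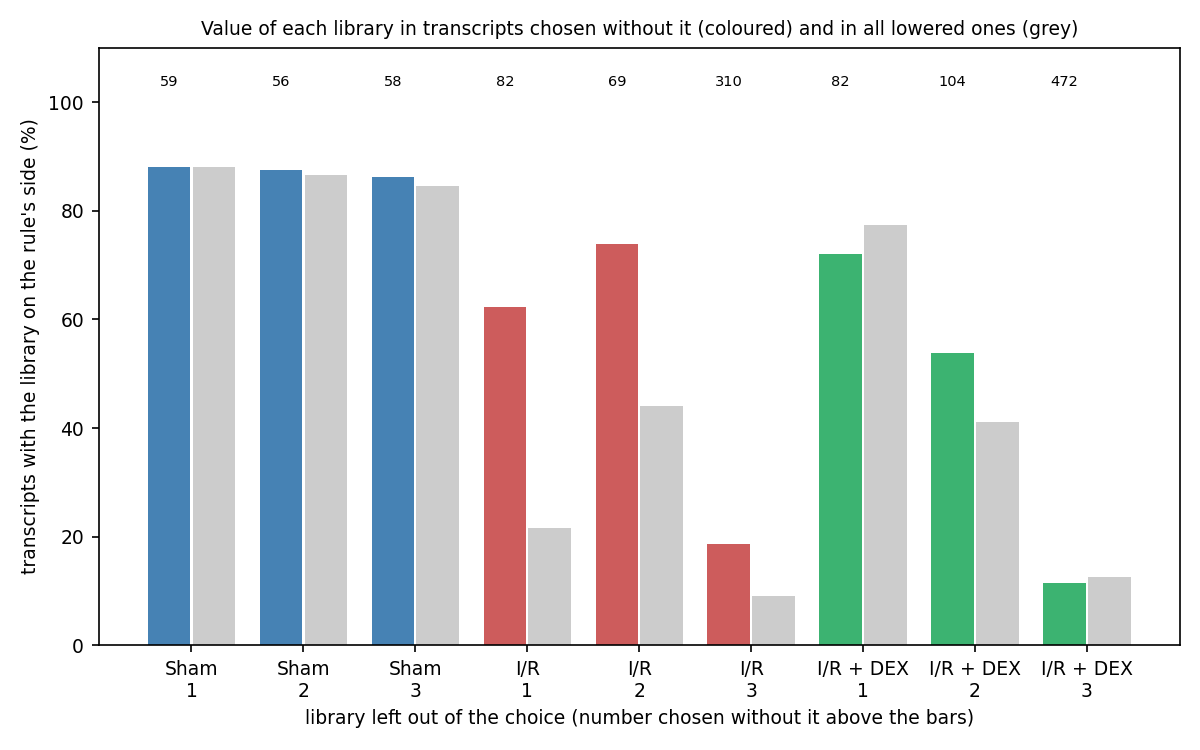
For each library, the coloured bar gives the share of transcripts chosen from the other 8 libraries in which the left-out library fell on the side that the rule asks for (Sham above every I/R + DEX, I/R below every I/R + DEX, I/R + DEX above every I/R), with the number chosen above it, and the grey bar gives the share among all lowered transcripts. The coloured and grey bars are 11.4% and 12.7% for I/R + DEX replicate 3 and 73.9% and 44.1% for I/R replicate 2. The choice itself favours a higher coloured bar, since the lowered transcripts were not asked to have I/R + DEX between the other groups.

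Fits across the whole table give the place of the members among all transcripts tested, although their contrasts are those that chose the members and nothing is read from the counts. Transcripts were called at the cutoff of the study, an unadjusted p under 0.05 and a log2 fold change beyond 0.8, with edgeR's quasi-likelihood test. In I/R against Sham, 50 of the 51 members were called lower at this cutoff, against 16.6% of 25777 transcripts tested, and 50 had a Benjamini-Hochberg adjusted p under 0.05, against 20.4%. The member not called, of rank 20, had 41, 398 and 480 counts in I/R replicates 1 to 3. With 1 I/R library far below the others, its I/R mean was 9.21 ± 7.13 CPM (SD, n = 3), the widest spread relative to the mean of the 51. The median log2 fold change of the members was -1.78, and that of all transcripts 0.03.

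In I/R + DEX against I/R, 23 of the 51 members were called higher at the cutoff, against 1.16% of 25860 transcripts. Without the fold change limit 38 members had an unadjusted p under 0.05 in that direction, against 1.92%. After Benjamini-Hochberg adjustment in edgeR, 0 members and 0 of the 25860 transcripts (0.0%) were called higher, while 6 members were with DESeq2's Wald test, against 0.175% of 25781 transcripts, and 0 with limma-voom, against 0.00387% (1 transcript). The median log2 fold change was 0.83 in the members, with a range of 0.51 to 1.80, and 0.01 over all transcripts. At the cutoff 10 members were called when I/R + DEX replicate 1 was left out, against 1.01% of transcripts in that fit, 10 when it was I/R replicate 2, against 0.961%, and 13 when it was I/R replicate 1, against 1.0%.

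In I/R + DEX against Sham, 29 of the 51 were called lower at the cutoff, against 11.9% of 25283 transcripts, and 26 passed at a Benjamini-Hochberg adjusted p under 0.05 in edgeR, against 8.77%. The median log2 fold change of the members was -0.87, and that of all transcripts 0.02. The comparisons share the I/R or the Sham libraries, so they are not independent of each other.

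The same rule applied to the predicted lncRNA of the table, assembled transcripts without an Ensembl identifier, was met by 8 of the 2226 that had 10 counts in every library (0.359%), against 51 of 18574 annotated transcripts (0.275%).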

How the data were processed

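Cortical RNA of 9 rats was sequenced on total RNA libraries. The authors deposited raw counts, whole numbers per transcript and library without normalization. The submitters' processing notes name STAR 2.5.3a, StringTie 1.3.1 and rn6, while the study's methods name Trimmomatic, a mouse genome build and CLC Genomics Workbench for gene counts. The way reads common to several transcripts were assigned is not given in the sources used here, so values of isoforms, overlapping genes and close paralogs are uncertain. Groups and replicate numbers came from the library titles, whose letters S, IR and D were read as Sham, I/R and I/R + DEX from the groups of the study, and nothing in them pairs animals. CPM was the count divided by the library total. The members, lists and tests were chosen with earlier results of these data known. The identifiers given follow a rule of 2 largest ratios of Sham to I/R and 2 of I/R + DEX to I/R. Gene lists and cell type markers, which need gene symbols, were not used here.

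Fits used R 4.3.3, edgeR 4.0.16 (TMM, filterByExpr, quasi-likelihood test on the 6 libraries of 2 groups), DESeq2 1.42.0 and limma 3.58.1, with Benjamini-Hochberg adjustment over all transcripts tested. Only the main edgeR fit was tested on simulated data, made for I/R against Sham. Counts per library ran from 21691473 to 36039743, which sets the counting error. Other scalings, filters, tools, a replicate block and leaving out each library were tried. Assignments of the I/R and I/R + DEX labels other than the real one were not examined.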

Additional observations from a re-analysis of the deposited data

How the results depend on the processing

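The number of members, 51, was 127 with TMM, 136 with DESeq2 size factors and 93 with no count minimum. It ranged from 56 to 472 with each library left out, and the largest values came without I/R + DEX replicate 3 (472) and I/R replicate 3 (310), then without I/R + DEX replicate 2 (104) and without I/R or I/R + DEX replicate 1 (82 each). Fewer libraries make the demand for separate groups easier to meet. The other alternatives gave 34 to 67. The median position of 29.5% was 42.3% on the log2 scale, and it ranged from 19.5% without I/R + DEX replicate 1 to 32.1% without I/R + DEX replicate 3. Members called higher in I/R + DEX than I/R were 23 at the cutoff and 0 at an adjusted p under 0.05, where 0 of all 25860 transcripts were called. They were 14 with total counts and 10 to 23 with each library left out. Over all transcripts, 1.16% were called in the main fit and 0.961% to 1.01% in the fits with 10 and 13 members. This share was not computed with total counts or for the other left-out libraries, so nothing is read from those counts of members. The share of transcripts placed above I/R by I/R + DEX replicate 3, when it was left out of the choice, was 11.4% by library totals and 20.6% with TMM. TMM was planned for the number of members and the median position. Its use on the shares of left-out libraries was added after seeing the data, as were totals without the 10 largest rows. The cause of these moves was not tested.

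The replicate numbers of the labels do not pair the rats by design. Correlations of the deviations of same-numbered libraries ran from -0.27 to 0.07, and no pairing was assumed. With the replicate block, 50, 18 and 28 members were called in I/R against Sham, I/R + DEX against I/R and I/R + DEX against Sham, where 50, 23 and 29 were called without it, and over all transcripts 4150, 199 and 3027 were called at the cutoff in the same directions, against 4271, 301 and 3017. In the remaining 62 of the 77 recomputed values of counts, positions and shares, the value stayed within 1.5 times for counts and shares and 1 SD for positions. The 72 recomputed log2 ratios of the 4 transcripts given by identifier kept their sign, but their SD was wide, and without I/R + DEX replicate 1 the ratio of I/R + DEX to I/R was lower by more than 1.5 times in all 4. Depth limits the members with fewest counts, of which 15 had under 50 in a library.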
